A study of Mus musculus with 47 samples.

Results

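Corticosteroid signalling in the hippocampus was described here through 10 genes, of 35486 in the count table, that were chosen for their textbook role: the receptors Nr3c1 and Nr3c2, the receptor cochaperone Fkbp5, the steroid-activating enzyme Hsd11b1, and 6 genes known to be induced by glucocorticoids (Sgk1, Tsc22d3, Sult1a1, Plin4, Zbtb16 and Cdkn1a). The rule that chose them uses no measured value, though they were picked with earlier results of these data known. All 10 genes were among the 17778 genes with enough reads to be tested. RNA was sequenced from the hippocampus of 47 male mice on a C57BL/6J background, 1 library per mouse, in 4 groups: Young Veh (n = 13), Young PF4 (n = 12), Old Veh (n = 12) and Old PF4 (n = 10). Young mice were 3.75 to 5.26 months old, Old Veh mice 17.47 to 19.97 months and Old PF4 mice 17.4 to 20.23 months. PF4 mice were injected daily into the peritoneum with mouse platelet factor 4, a chemokine stored in platelets, and Veh mice with the vehicle. The young and aging mice of the paper's PF4 experiments were injected and handled in behavioural tests, with single housing during water maze studies. The paper ran the water maze with different protocols in young and aging mice. Which of these tests the sequenced mice went through is not given in the sources used here. If they ran the maze, age and its protocol cannot be told apart. The interval between the last handling and tissue collection is not given in the sources used here.

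Corticosterone, the main glucocorticoid of mice, reaches the hippocampus from the adrenal gland and binds a pair of nuclear receptors. The mineralocorticoid receptor, encoded by Nr3c2, has the higher affinity and is occupied at resting hormone levels, whereas the glucocorticoid receptor, encoded by Nr3c1, is occupied when the hormone rises with stress or the daily peak. Occupied receptors enter the nucleus and switch genes on, and an induced protein, FKBP5, lowers the affinity of the glucocorticoid receptor and so closes a feedback loop.

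Total counts per library ran from 2242879 to 21112908, and 8 libraries held under 5000000 counts (1 Young Veh, 2 Young PF4, 4 Old Veh and 1 Old PF4). Markers of the choroid plexus, the tissue that makes cerebrospinal fluid, differed widely between libraries: the summed level of 10 markers had a median of 1943 CPM (counts per 1000000 counts of the TMM-scaled library, range 12.0 to 4259) in Young Veh, 2380 (94.0 to 3448) in Young PF4, 47.1 (15.1 to 4259) in Old Veh and 65.9 (25.9 to 3280) in Old PF4. The 6 markers of meningeal fibroblasts, cells of the brain's covering, had medians of 128, 130, 90.7 and 94.4 CPM in the same order, with a range of 37.3 to 230.0 over all libraries. The 10 neuronal markers had group medians from 8311 to 8889 CPM, so neurons, the labelled tissue's main cells, were present in every group. In whole tissue, fewer cells of a type and less RNA per cell cannot be told apart. Library numbers, whose meaning the labels do not give, were not shared between ages, so age and that number cannot be told apart either. Old Veh and Old PF4 also held separate runs of numbers, whereas the numbers of the young groups were mixed. In old mice, therefore, PF4 treatment and the library number cannot be told apart.

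Compared per kilobase of each gene's longest transcript, the mean level over the 47 libraries was highest for Sgk1 at 40.4 CPM per kb ± 9.62 (SD), followed by Nr3c2 at 37.1 ± 3.79 and Tsc22d3 at 35.1 ± 6.68. These 3 genes lay within each other's spread. Nr3c1 stood at 20.2 ± 1.58 CPM per kb, Fkbp5 at 18.98 ± 2.13 and Hsd11b1 at 16.8 ± 2.07, whose ranges of mean ± SD overlapped from neighbour to neighbour, whereas that of Zbtb16 (12.2 ± 1.73) lay below them. Sult1a1 (3.68 ± 1.05), Cdkn1a (3.32 ± 0.842) and Plin4 (0.637 ± 0.264) were far lower. Plin4 had between 5 and 108 reads in a library, Sult1a1 8 to 115 and Cdkn1a 14 to 211, so single values of these 3 genes carry a large counting error.

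The genes also differed in how far mice of a group varied among themselves. The biological coefficient of variation, the spread between mice that remains after counting error is removed, was 7.00% for Nr3c1, 9.39% for Nr3c2, 9.90% for Fkbp5 and 11.0% for Hsd11b1, below the median of 12.1% over all genes tested. The induced genes lay above that median, from 14.6% for Zbtb16 through 16.3% for Tsc22d3, 19.9% for Sgk1, 20.3% for Sult1a1 and 20.4% for Cdkn1a to 33.1% for Plin4, which exceeded 95.3% of all genes. Thus the receptors were among the steadier transcripts, and each of the 6 induced genes varied more between mice than either receptor did.

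**Figure D1:**
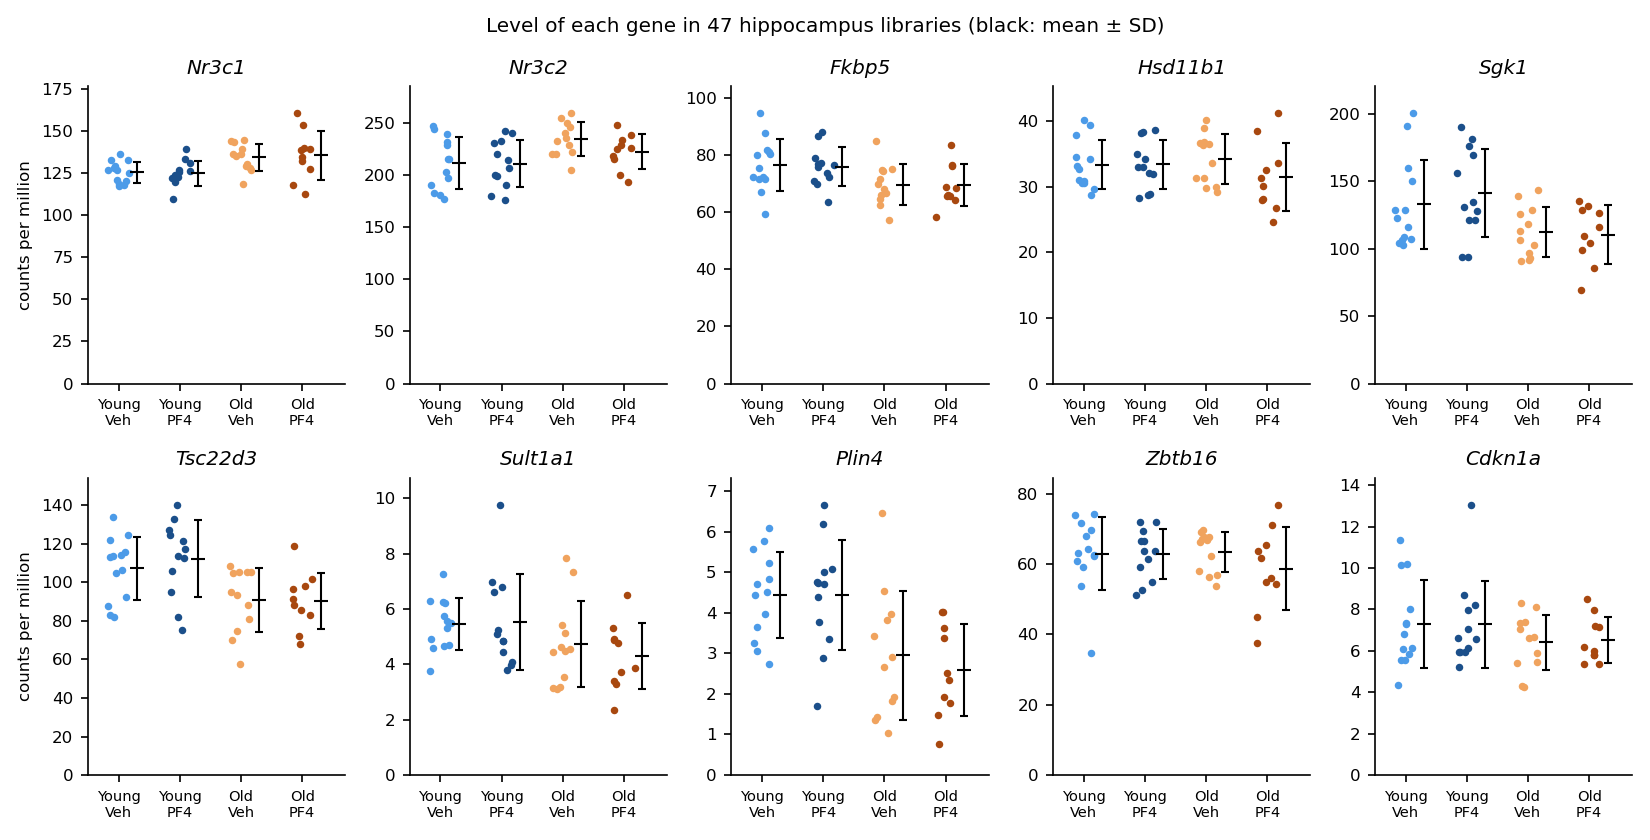
Level of each gene in CPM (vertical axes, from 0) in every library of the 4 groups (horizontal axes). Points are libraries and black marks the mean ± SD; the groups overlap for all 10 genes, with Plin4, Tsc22d3 and Sgk1 centred lower in both old groups.

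The first comparison asked how the genes differ between old and young mice, once in vehicle mice and once in PF4 mice, which share no library. In vehicle mice 0 of the 10 genes passed an adjusted p of 0.05 (quasi-likelihood test of edgeR, p-values adjusted by Benjamini-Hochberg over all genes), against 2.77% of all genes, and 5 had an unadjusted p under 0.05, as 15.2% of all genes did. DESeq2 also called 0 of them. In PF4 mice 0 of 10 were called by edgeR and by DESeq2, against 0.332% of all genes, and 4 had an unadjusted p under 0.05, against 8.27% of all genes. The median log2 change of the 10 genes was -0.16 in vehicle mice and -0.16 in PF4 mice, whereas the median over all genes was -0.01 and 0.0041. After these values were known, the age change was also averaged over both treatments in the same fit, which uses all 47 mice. There 4 of the 10 genes passed, against 4.71% of all genes: Nr3c1 rose, and Sgk1, Tsc22d3 and Plin4 fell.

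Among the receptors, Nr3c1 ran from 118 to 136 CPM in Young Veh (median 127), 110 to 139 in Young PF4 (median 125), 119 to 144 in Old Veh (median 136) and 113 to 161 in Old PF4 (median 137). Of the old mice, 11 of 12 Old Veh and 8 of 10 Old PF4 lay above the median of their young group, though the ranges overlapped. The averaged age change was 0.11 on the log2 scale (SE 0.030, adjusted p = 0.0281), an increase of 7.71% (95% interval 3.23% to 12.4%). It was 0.10 in vehicle mice (SE 0.042, adjusted p = 0.233) and 0.12 in PF4 mice (SE 0.045, adjusted p = 0.380).

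Nr3c2, the receptor of higher affinity, ran from 177 to 247 CPM in Young Veh (median 215), 176 to 243 in Young PF4 (median 211), 205 to 260 in Old Veh (median 234) and 193 to 248 in Old PF4 (median 225). Its highest value was in Old Veh and its lowest in Young PF4, but most libraries shared 1 range. Its averaged age change of 0.11 (SE 0.040, adjusted p = 0.10) matched that of Nr3c1 in size and did not pass the test. The Nr3c2 transcript overlaps an antisense RNA, Gm10649, over 247 exonic bases, and the libraries do not keep the strand. That gene held 3467 reads over all libraries against 104786 of Nr3c2.

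Fkbp5, the cochaperone that dampens the glucocorticoid receptor and is itself one of its best known targets, ran from 59.4 to 94.9 CPM in Young Veh (median 75.7), 63.5 to 88.1 in Young PF4 (median 76.2), 57.3 to 84.9 in Old Veh (median 69.0) and 58.5 to 83.8 in Old PF4 (median 67.4). The old groups were centred lower, with 11 of 12 Old Veh and 7 of 10 Old PF4 mice under the median of their young group. The averaged age change of -0.14 (SE 0.044) had an adjusted p of 0.0567 and did not pass. It crossed the threshold with a covariate for the choroid plexus markers (-0.19, adjusted p = 0.00641). The same held with one for the meningeal markers (-0.17, adjusted p = 0.0363), with one for the length index described with the correlations (-0.15, adjusted p = 0.0117) and with 1 of 6 libraries left out in turn (Old PF4 replicate 5 or 6, Old Veh replicate 8, Young PF4 replicate 8, Young Veh replicate 4 or 8, adjusted p from 0.0154 to 0.0481).

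Hsd11b1, which regenerates active corticosterone inside cells, had group medians of 32.7 CPM in Young Veh (28.7 to 40.2), 33.01 in Young PF4 (28.2 to 38.6), 34.9 in Old Veh (29.1 to 40.2) and 30.7 in Old PF4 (24.5 to 41.2). All groups shared most of their range. The averaged age change was -0.03, with a 95% interval of -0.13 to 0.07, so a change of more than that size in either direction lay outside the interval.

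Sgk1 encodes a kinase that acts on ion channels and transporters and is a direct target of corticosteroid receptors. The receptors bind DNA as dimers at a palindrome of a hexamer and its reverse complement, written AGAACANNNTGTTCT in its ideal form. RefSeq promoter windows of GRCm38.p6, each from 250 bases before to 50 bases after an annotated start, were found for 8 of the 10 genes (16 windows). The ideal palindrome occurred in 3 of 32851 windows of all genes (0.00913%), and among the 10 genes in 1 window, that of an alternative start of Sgk1 at chr10:21993640-21993939 on the plus strand. The window is shown because it holds this match, which begins at base 62, 189 bases before the start. Capitals mark the palindrome and a further hexamer match at bases 9 to 14.
Sgk1: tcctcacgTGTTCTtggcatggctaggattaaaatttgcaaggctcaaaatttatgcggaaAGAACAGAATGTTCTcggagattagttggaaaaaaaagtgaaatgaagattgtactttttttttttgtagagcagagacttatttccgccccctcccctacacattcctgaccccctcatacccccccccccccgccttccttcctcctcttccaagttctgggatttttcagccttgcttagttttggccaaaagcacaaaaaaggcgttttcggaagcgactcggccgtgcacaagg

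The single hexamer AGAACA, read on either strand, occurred in 18.97% of all windows and in 5 of the 16 windows of the 10 genes (31.25%), 3 of the 6 of Sgk1 and 1 each of Tsc22d3 and Sult1a1. Such a match says only that these letters are present, and counts per gene do not show which start the hippocampus used. Sgk1 lies on chromosome 10 (21882184 to 21999903, plus strand).

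The Sgk1 level ran from 103 to 200.4 CPM in Young Veh (median 123), 93.6 to 190 in Young PF4 (median 133), 90.8 to 144 in Old Veh (median 110) and 69.1 to 135 in Old PF4 (median 112). The highest libraries were young: no old mouse exceeded 144 CPM, and the lowest value was that of an Old PF4 mouse. Averaged over treatments Sgk1 fell by 0.29 on the log2 scale (SE 0.085, adjusted p = 0.0350), a change of -18.2% with a 95% interval from -27.3% to -7.88%. The values were -0.23 in vehicle mice (adjusted p = 0.333) and -0.35 in PF4 mice (adjusted p = 0.335).

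Tsc22d3, on the X chromosome (140539528 to 140600659, minus strand), encodes GILZ, a leucine zipper protein through which glucocorticoids curb inflammation. It ran from 82.1 to 134 CPM in Young Veh (median 113), 75.2 to 140 in Young PF4 (median 116), 57.9 to 108 in Old Veh (median 94.4) and 68.1 to 119 in Old PF4 (median 90.0). All 12 Old Veh mice and 9 of 10 Old PF4 mice lay below the median of their young group, and 4 and 2 of them below every young mouse of that treatment. The averaged age change was a fall by 0.27 on the log2 scale (SE 0.070, adjusted p = 0.0128), a change of -17.2% with an interval from -24.9% to -8.74%.

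Plin4, a coat protein of lipid droplets on chromosome 17 (56100591 to 56109803, minus strand), had the largest age change of the 10 genes. It ran from 2.75 to 6.09 CPM in Young Veh (median 4.53), 1.71 to 6.67 in Young PF4 (median 4.73), 1.03 to 6.47 in Old Veh (median 2.79) and 0.764 to 4.03 in Old PF4 (median 2.42). In PF4 mice, 10 of 10 old libraries lay under the young median, and in vehicle mice 10 of 12, of which 6 were below every young mouse, although 1 Old Veh library held the highest value of that comparison. Plin4 fell by 0.67 on the log2 scale (SE 0.159, adjusted p = 0.00638), a change of -37.3% with an interval from -49.8% to -21.7%. It shares 17 exonic bases with Hdgfl2 on the other strand, which held 39888 reads over all libraries against 1782 of Plin4.

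The other 3 induced genes were not called in the age comparisons over all libraries. Sult1a1, a sulfotransferase of phenolic compounds, had medians of 5.51 CPM in Young Veh (3.76 to 7.27), 4.96 in Young PF4 (3.79 to 9.78), 4.52 in Old Veh (3.11 to 7.85) and 4.31 in Old PF4 (2.35 to 6.52). The groups overlapped, and the averaged change was -0.26 (SE 0.106, adjusted p = 0.156), and -0.32 (adjusted p = 0.0499) without Old Veh replicate 10. With the meningeal markers as a covariate it was -0.07, and with the choroid plexus markers -0.14. Sult1a1 also shares 61 exonic bases with Sgf29, which lies on the other strand and held 6331 reads over all libraries against 2394. Zbtb16, a zinc finger transcription factor, had medians of 63.2 CPM in Young Veh (34.9 to 74.3), 63.7 in Young PF4 (51.2 to 72.1), 66.5 in Old Veh (53.9 to 69.8) and 58.9 in Old PF4 (37.6 to 77.0). Its averaged change was -0.045 (adjusted p = 0.770), with a 95% interval from -0.17 to 0.08. Cdkn1a, the cell cycle inhibitor p21, had medians of 6.83, 6.59, 6.64 and 6.08 CPM in the order Young Veh, Young PF4, Old Veh and Old PF4, over a range of 4.27 to 13.1, and its averaged change was -0.18 (SE 0.099, adjusted p = 0.315).

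Tsc22d3 and Plin4 were called with every single library left out. Among these fits Nr3c1 missed the threshold only without Old PF4 replicate 1 (adjusted p = 0.0528). Sgk1 missed it without any 1 of 9 libraries, Old PF4 replicates 1 and 3, Old Veh replicates 2 and 5, Young PF4 replicates 5, 6 and 9, and Young Veh replicates 1 and 13 (adjusted p from 0.0510 to 0.0619). Without the 8 libraries under 5000000 counts the count fell from 4 to 1: Plin4 stayed called (-0.73, adjusted p = 0.00989), while Tsc22d3 (-0.27, adjusted p = 0.0531), Nr3c1 (0.095, adjusted p = 0.130) and Sgk1 (-0.22, adjusted p = 0.212) did not pass. With the choroid plexus score as a covariate, Tsc22d3 (-0.29, adjusted p = 0.0220) and Plin4 (-0.65, adjusted p = 0.0198) were still called, and Nr3c1 (0.11, adjusted p = 0.0552) and Sgk1 (-0.22, adjusted p = 0.185) were not. With the meningeal score, likewise, Tsc22d3 (-0.29, adjusted p = 0.0179) and Plin4 (-0.58, adjusted p = 0.0388) were called and Nr3c1 (0.11, adjusted p = 0.0636) and Sgk1 (-0.20, adjusted p = 0.251) were not. Markers of other cells moved with age too: 7 of 10 microglial markers passed the test as higher in old mice in the averaged change, where 4.71% of all genes passed, and 10 of 10 lay above 0, with medians of their summed level of 462 CPM (409 to 523) in Young Veh, 444 (414 to 515) in Young PF4, 525 (444 to 610.4) in Old Veh and 568 (479 to 669.9) in Old PF4. Of the mature oligodendrocyte markers 3 of 10 passed as higher and 10 lay above 0, and of the astrocyte markers 3 of 10 passed as higher and 6 lay above 0. Of the meningeal markers 2 of 6 passed as lower and 6 lay below 0, and of the hippocampal CA2 neuron markers 1 of 5 passed as lower and 3 lay below 0. Beyond the covariate fits given above, the part of these cells in the age changes was not tested.

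**Figure D2:**
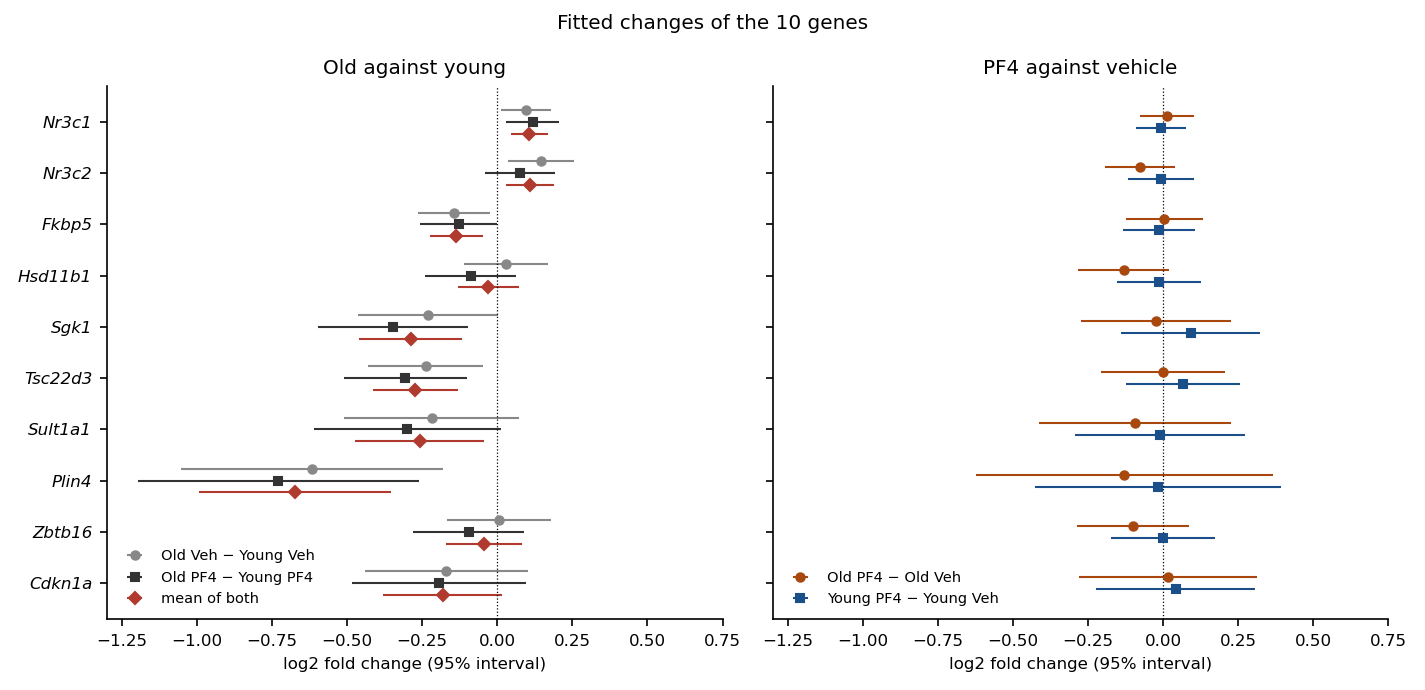
Fitted log2 fold change (horizontal axes, bars are 95% intervals) of the 10 genes between old and young mice (left) and between PF4 and vehicle mice (right). On the left the averaged intervals of Nr3c1 and Nr3c2 lie above 0 and those of Fkbp5, Sgk1, Tsc22d3, Sult1a1 and Plin4 below it, before adjustment over all genes; on the right all intervals cross 0.

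The treatment comparison asked whether PF4 moved these genes, with the limit that treatment of the old mice is split by library number. In old mice 0 of the 10 were called by edgeR, with 0.0337% of all genes called, and 0 had an unadjusted p under 0.05, against 6.2% of all genes. DESeq2 called 0 as well. In young mice 0 of 10 were called by either tool, 0 had an unadjusted p under 0.05, against 1.2% of all genes, and 0.0% of all genes passed. Nr3c1 differed by 0.99% between Old PF4 and Old Veh (95% interval -5.09% to 7.45%) and by -0.46% between the young groups (-6.06% to 5.49%). For Fkbp5 the differences were 0.27% (-8.29% to 9.63%) in old and -0.96% (-8.79% to 7.55%) in young mice. For Nr3c2 they were -5.19% (-12.6% to 2.84%) and -0.54% (-7.81% to 7.30%).

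The intervals were wider for the variable targets. Tsc22d3 differed by -0.10% in old mice (-13.4% to 15.2%) and 4.76% in young mice (-8.17% to 19.5%). Sgk1 differed by -1.57% (-17.2% to 17.0%) and 6.59% (-9.19% to 25.1%). Plin4 differed by -8.59% (-35.1% to 28.7%) and -1.16% (-25.5% to 31.2%), the widest intervals of the 10 genes. The lowest unadjusted p in old mice was that of Hsd11b1 (-0.13 on the log2 scale, 95% interval -0.28 to 0.02, adjusted p = 0.877). The difference of the PF4 change between old and young mice was called for 0 of 10 genes by edgeR and by DESeq2, with 0.0% of all genes called, and 0 of the 10 had an unadjusted p under 0.05, against 3.98% of all genes. Its values ran from -0.12 for Hsd11b1 to 0.02 for Nr3c1.

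Around the receptors, 5 further lists were read in the same fits, where 2.77% of all genes were called with age in vehicle mice and 4.71% in the averaged change. With 1 called gene of 14 or 25, a list lies near that background. Of 25 tested genes known as glucocorticoid-induced (26 listed), 1 was called with age in vehicle mice, Glul, the astrocytic glutamine synthetase (0.20, adjusted p = 0.0286), and 3 in the averaged change: Glul again (0.20, adjusted p = 0.000789) and, lower in old mice, Mfsd2a, a lipid transporter of the blood-brain barrier (-0.26, adjusted p = 0.00824), and Hif3a, a hypoxia-inducible factor (-0.57, adjusted p = 0.0364). The median of the 25 was -0.08 in the averaged change, with 17 below 0. Of 14 genes of the chaperone complex that holds the unoccupied receptor, Fkbp4, the cochaperone that opposes FKBP5, was lower in old mice (-0.16 in vehicle mice, adjusted p = 0.0441; -0.12 averaged, adjusted p = 0.0199). Of 14 receptor coregulators, Ncoa2 was higher in old vehicle mice (0.18, adjusted p = 0.0269), and 0 were called in the averaged change. Of 8 tested genes of steroid synthesis and transport (13 listed) and 9 tested stress peptides and their receptors (12 listed), 0 were called with age by edgeR in vehicle mice, where 0 and 2 had an unadjusted p under 0.05 (15.2% of all genes), or in the averaged change, where 0 and 4 did (18.96% of all genes). In PF4 mice with age, and for PF4 in old and in young mice, 0 of the 70 tested genes of the 5 lists were called by edgeR, with 9, 6 and 1 at an unadjusted p under 0.05, against 8.27%, 6.2% and 1.2% of all genes.

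The last question was whether the genes move together between mice of the same group. Each gene's log2 CPM was centred on its group mean, and Pearson's r was taken over the 47 libraries for all 45 pairs, with unadjusted two-sided permutation p-values within groups (100000 resamples). Of the pairs, 23 had r above 0 and 18 had p under 0.05. Fkbp5 and the 6 induced genes did not form 1 block: of their 21 pairs, 14 were above 0 and the median r was 0.17. Fkbp5 had r = 0.05 with Sgk1, -0.01 with Tsc22d3, 0.08 with Sult1a1 and -0.05 with Cdkn1a.

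**Figure D3:**
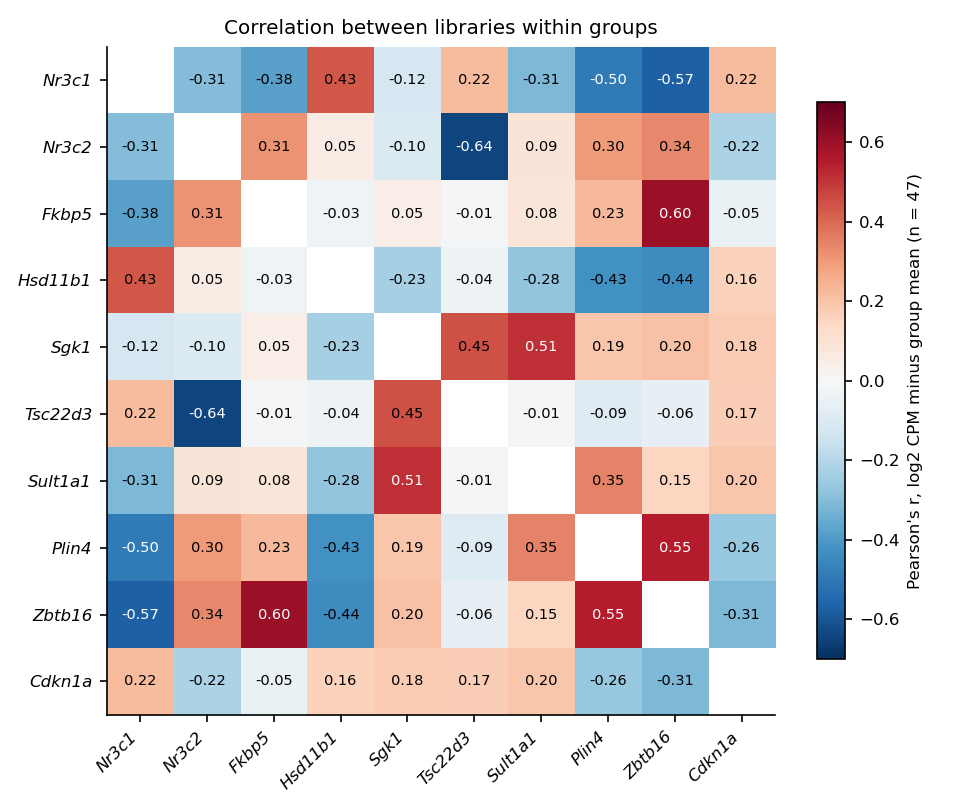
Pearson's r between the 10 genes over 47 libraries, on log2 CPM minus the group mean (color and printed value; the diagonal is left blank). Zbtb16 pairs positively with Fkbp5 (0.60) and Plin4 (0.55), as does Sgk1 with Tsc22d3 and Sult1a1, and Nr3c2 is opposed to Tsc22d3 at -0.64.

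Fkbp5 and Zbtb16 were the closest positive pair (r = 0.60, permutation p = 3e-05; rho = 0.63, permutation p = 2e-05), above 0 in each of the 4 groups, from 0.45 in Old Veh to 0.70 in Young Veh, which was 0.40 without Young Veh replicate 4. Zbtb16 also went with Plin4 (r = 0.55, permutation p = 6e-05; rho = 0.45, permutation p = 0.0020), again above 0 in all 4 groups. Sgk1 went with Sult1a1 (r = 0.51, permutation p = 0.00030; rho = 0.51, permutation p = 0.00043) and with Tsc22d3 (r = 0.45, permutation p = 0.0019; rho = 0.45, permutation p = 0.0019), both above 0 in all 4 groups. These 4 pairs stayed above 0 in every group with each library of the group left out in turn. Without the 2 libraries farthest from the median of 1 gene of each pair, r was 0.55, 0.43, 0.47 and 0.40 in the same order. That gene was Fkbp5 in the first pair, Plin4 in the second and Sgk1 in the others. Within these pairs, then, Zbtb16 was linked to Fkbp5 and Plin4, and Sgk1 to Sult1a1 and Tsc22d3.

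The strongest relation of all was negative. Nr3c2 and Tsc22d3 had r = -0.64 and rho = -0.66, both with a permutation p of 1e-05, the smallest that the resamples can give. The relation was below 0 in every group, from -0.51 in Old PF4 (-0.19 without replicate 8) to -0.74 in Old Veh, and was -0.61 without the 2 libraries farthest from the median of Nr3c2. Nr3c1 was opposed to Zbtb16 (r = -0.57, permutation p = 0.00012; rho = -0.52, permutation p = 0.00045), with values from -0.88 to -0.53 in 3 groups (Young PF4 was -0.32 without replicate 1) and 0.30 in Old Veh (0.094 without replicate 10 and 0.53 without replicate 12). It was also opposed to Plin4 (r = -0.50, permutation p = 0.0014; rho = -0.40, permutation p = 0.0086), below 0 in all 4 groups, although Old Veh was 0.043 without replicate 12, and -0.42 and -0.46 remained without the 2 farthest libraries.

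Markers and RNA properties moved with some of these genes. Nr3c2 had r = 0.48 with the neuronal marker score (rho = 0.52, permutation p = 0.00026 and 0.00033, r = 0.50 without the 2 farthest libraries), while Tsc22d3 had -0.36 (rho = -0.32, permutation p = 0.0178 and 0.0359, r = -0.26) and Sgk1 -0.39 (rho = -0.45, permutation p = 0.00522 and 0.00183, r = -0.39). Sult1a1 had r = 0.61 with the meningeal score (rho = 0.58, permutation p = 1e-05 and 4e-05, r = 0.53) and Cdkn1a 0.47 with the 2 tested blood markers (rho = 0.53, permutation p = 0.00077 and 0.00022, r = 0.52). Sgk1 had r = 0.35 with the meningeal score (permutation p = 0.0174). With the choroid plexus score r was 0.32 for Sgk1 (permutation p = 0.0298) and 0.41 for Sult1a1 (permutation p = 0.00688). With the endothelial score r was 0.04 for Sgk1 and 0.45 for Sult1a1 (permutation p = 0.777 and 0.00208). A length index, the mean level of genes with a longest transcript of at least 4594 bases minus that of genes of at most 2006 bases, had r = 0.66 with Zbtb16 (rho = 0.46, permutation p = 9e-05 and 0.0015) but 0.37 without the 2 farthest libraries, of which 1 is Young Veh replicate 4. This index also had r = 0.40 with Fkbp5, 0.36 with Plin4 and 0.35 with Sgk1 (permutation p = 0.0107, 0.00629 and 0.0252). Without the 2 farthest libraries these were 0.22, 0.20 and 0.39. For Nr3c2 and Hsd11b1 it had r = 0.31 and -0.30 (permutation p = 0.0498 and 0.0411). With the length index regressed out, r was 0.49 for Fkbp5 and Zbtb16, 0.44 for Plin4 and Zbtb16, 0.52 for Sgk1 and Tsc22d3, and -0.65 for Nr3c2 and Tsc22d3. These p-values belong to 110 relations of genes with scores and are unadjusted. The part of tissue makeup in the relations was not tested.

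**Figure D4:**
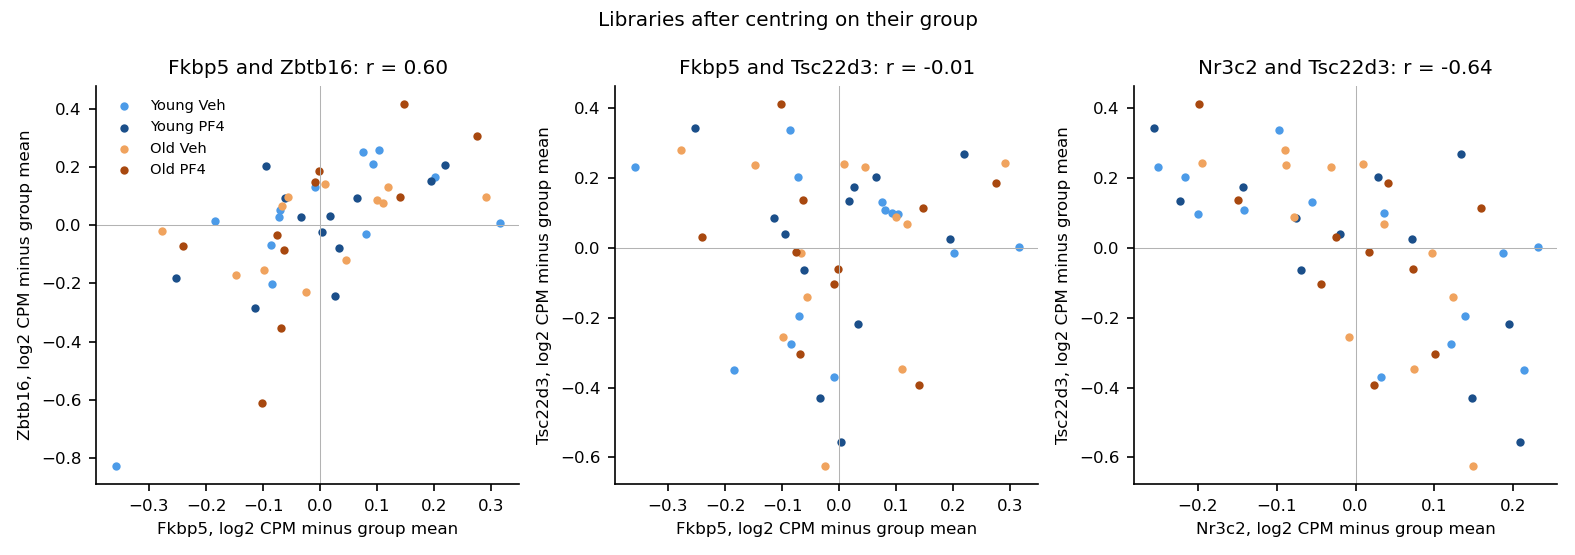
Log2 CPM minus the group mean of Zbtb16 against Fkbp5 (left), Tsc22d3 against Fkbp5 (middle) and Tsc22d3 against Nr3c2 (right), 1 point per library, colored by group. The left panel rises, with 1 Young Veh library far down at the lower left, the middle panel has no slope, and the right panel falls in every group.

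To set these relations against all genes, each gene's log2 level was fitted on the centred Fkbp5 level with the 4 group means in edgeR. Of 17777 genes, 17.7% were called over all libraries, against 2.21% of 17730 without Young Veh replicate 4 and 1.98% with the length index as a covariate. Of the other 9 genes, 1 was called: Zbtb16 rose by 0.90 per log2 unit of Fkbp5 (SE 0.183, adjusted p = 0.00169). Nr3c1 had a slope of -0.25 (SE 0.099, adjusted p = 0.0658), Nr3c2 0.29 (SE 0.133, adjusted p = 0.117) and Plin4 0.98 (SE 0.515, adjusted p = 0.179), and the other 5 had adjusted p from 0.703 to 0.937. The count over all genes was 3140 over all libraries, 392 without Young Veh replicate 4 and 352 with the length index. In each of these fits 1 of the 9 genes was called, a share below the background of the first and above that of the other two. Zbtb16 was the gene called in all of them, with a slope of 0.71 (adjusted p = 0.0270) without Young Veh replicate 4 and 0.57 (adjusted p = 0.0491) with the length index. It was called with every single library left out, but not with old libraries alone (0.84, adjusted p = 0.224), where 0 of all genes passed. Nor was Zbtb16 called with coefficients for the replicate number added, where 2 of all genes passed. Nr3c1 crossed the threshold without any 1 of 8 libraries, Old PF4 replicate 11, Old Veh replicates 5, 8 and 10, Young PF4 replicates 4 and 11 and Young Veh replicates 2 and 9 (adjusted p from 0.0255 to 0.0488), and Nr3c2 without Old Veh replicate 8 or Young Veh replicate 8 (adjusted p = 0.0285 and 0.0317).

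Of the 70 tested genes of the 5 lists, 18 were called in this fit, against 17.7% of all genes, and 8 of them had a positive slope. Without Young Veh replicate 4 only Mfsd2a was still called (0.81, adjusted p = 0.0286), though all 18 slopes kept their sign and 13 stayed within 1.5 times of their value. With the length index only Crhr2 was called (-2.24, adjusted p = 0.0390), so that 1 of 70 was called in each fit, against 2.21% and 1.98% of all genes. With the length index, 14 of the 18 slopes shrank by more than 1.5 times. The slopes of Dusp1 and Ptges3 shrank most among the genes named here without Young Veh replicate 4, to -0.32 and -0.13. The values that follow are those over all 47 libraries. Of the 25 other induced genes 5 were called, a share close to that of all genes: Mfsd2a (0.82, adjusted p = 0.00355) and, with the same sign, Per1 (0.57, adjusted p = 0.0234), a clock gene, and Errfi1 (0.44), an inhibitor of growth factor receptors, against Usp2 (-0.68, adjusted p = 0.00489), a ubiquitin protease, and Dusp1 (-1.06), a phosphatase of stress kinases. Of the 14 chaperone genes 11 had a slope below 0, and 3 of these were called: Bag1 (-0.33, adjusted p = 0.0146), Stub1 (-0.40) and Ptges3 (-0.43). Of the 14 coregulators 7 were called, 4 with a positive slope, and the smallest adjusted p were those of Carm1 (0.76, adjusted p = 0.00875), Med1 (-0.51) and Hdac2 (0.45). Among the 8 steroid genes Tspo (-1.31) was called, and among the 9 stress peptide genes Adcyap1r1 (0.60) and Crhr2 (-1.80), both receptors of stress peptides. Markers of other cells moved in the same fit: 8 of 10 choroid plexus markers were called with a negative slope (median of the 10 -5.06), and so were 5 of 10 mature oligodendrocyte markers (median -0.40). Their part in the slopes of the list genes was not tested.

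By the same centred values over 47 libraries, the genes most like Fkbp5 outside the 10 were Lyst (r = 0.70), Fam117b (0.69), Lrp11 (0.69), Rapgef5 (0.68) and Olfml2b (0.68), and the most opposed were Car2 (-0.67), Lgmn (-0.67) and Trf (-0.66). Without Young Veh replicate 4 these 8 genes had r from 0.62 to 0.67 and from -0.61 to -0.60. Zbtb16 ranked 47 among all genes by this measure, and 104 without that library. Car2 and Trf are expressed in oligodendrocytes, and Fkbp5 itself had r = -0.37 with the mature oligodendrocyte score and -0.40 with the choroid plexus score. The genes most like Sult1a1 were Mgp (0.69), a matrix protein, Gm26719 (0.68), Sdc1 (0.68), Serpind1 (0.67) and Cd163 (0.67), a scavenger receptor of border macrophages, and the most opposed were Ankrd13d (-0.59), Matk (-0.58) and Nsl1 (-0.57). Sgk1 ranked 153 in likeness to Sult1a1.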

How the data were processed

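The table the authors deposited holds raw read counts for each gene. Per the labels, Smart-Seq2 cDNA was made into unstranded Nextera XT libraries, and reads were trimmed with Trim Galore 0.3.7 and aligned with STAR 2.5.3a to GRCm38; the counting tool is not given in the sources used here. The authors left out samples of low coverage.

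Counts were tested as deposited with edgeR 4.0.16 (quasi-likelihood, TMM, filterByExpr, 4 group means), with a threshold of 0.05 on p-values adjusted by Benjamini-Hochberg over all 17778 genes tested. DESeq2 1.42.0 was an alternative. Depth, 2242879 to 21112908 counts per library, limits Plin4, Sult1a1 and Cdkn1a most. Log2 CPM used a prior count of 2. Marker scores are mean log2 CPM. The length index used the longest transcripts of GENCODE M21 (99.4% of genes). Steps were tested on simulated data.

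The 10 genes and the lists were chosen with earlier results of these data known. Named besides them are the called genes of each list (at most 4 by smallest adjusted p; the remaining called gene of the induced list, Dusp1, was added after its value was seen; a called coregulator is not reported here), and the 5 genes most like and 3 most opposed to Fkbp5 and Sult1a1. The averaged age change, the endothelial, meningeal and length covariates and the values without Young Veh replicate 4 other than its turn in the leave-one-out fits were chosen after seeing the data. Mice were housed in groups, but which of them shared a cage or litter is not given in the sources used here.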

Additional observations from a re-analysis of the deposited data

How the results depend on the processing

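For the age changes in vehicle and in PF4 mice, the PF4 changes and their difference, 0 of 10 genes were called by DESeq2, and 0 by edgeR in the fits with other size factors, other count filters, the choroid plexus covariate, the replicate block and no libraries under 5000000 counts, and with each library left out in turn. The exception was the age change in vehicle mice with the length index as a covariate, where 2 were called (Fkbp5 and Plin4). For the averaged age change the count was 4 with DESeq2, 5 with the replicate block or the length index (Fkbp5 added), 3 with the choroid plexus or meningeal covariate, 1 without libraries under 5000000 counts, and 2 to 5 with a library left out. For the fit on Fkbp5 it was 2 without those libraries (Nr3c1 added), 2 with Tsc22d3 in place of Fkbp5 (Nr3c2 and Sgk1), 0 with old libraries alone, 0 with the replicate block and 1 to 3 with a library left out. The labels do not say that the same replicate numbers pair the mice. Of 44 pairs of libraries with the same number, 15 had a correlation of deviations over 0.1 (range -0.42 to 0.55). In both old groups, however, the lowest replicate numbers belonged to the oldest mice. The replicate block, which called 2 of all genes in the fit on Fkbp5, therefore partly follows age among the old mice. The difference between ages was not fitted on compared groups alone, since it uses all groups. The cause of these differences was not tested.

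Values that changed sign, of which the slope of Nr3c2 on Tsc22d3 alone passed the test (adjusted p = 0.000841), were these. In the age change in vehicle mice, Hsd11b1 was -0.0073 and Zbtb16 -0.033 with the choroid plexus covariate, Hsd11b1 was -0.026, Sult1a1 0.013 and Zbtb16 -0.0085 with the meningeal covariate, Zbtb16 was -0.044 without libraries under 5000000 counts, Zbtb16 was -0.088 with the length index. In the PF4 change of old mice, Fkbp5 was -0.026 with the replicate block, Tsc22d3 was 0.00013 with no count filter, Tsc22d3 was 0.057 and Plin4 0.037 without libraries under 5000000 counts, Tsc22d3 was 0.00033 with the choroid plexus covariate. In the PF4 change of young mice, Fkbp5 was 0.0010 without libraries under 5000000 counts, Zbtb16 was -0.00038 with no count filter, Zbtb16 was -0.0017 with the replicate block, Zbtb16 was -0.0013 with DESeq2. In the difference of the PF4 change between ages, Fkbp5 was -0.0094 with the replicate block, Sult1a1 was 0.045 and Plin4 0.049 without libraries under 5000000 counts. In the fit on Fkbp5, Nr3c1 was 0.093, Nr3c2 -0.34, Sult1a1 -0.11, Plin4 -0.090, Zbtb16 -0.033 and Cdkn1a 0.28 with Tsc22d3 in its place, Hsd11b1 was 0.15, Sgk1 -0.19, Tsc22d3 0.084, Sult1a1 -0.065 and Cdkn1a 0.050 with the length index, Hsd11b1 was 0.090 and Sgk1 -0.16 with old libraries alone, Hsd11b1 was 0.21, Tsc22d3 0.11 and Cdkn1a 0.049 with the replicate block. With a library left out, signs also changed for some genes. In the age change in vehicle mice, the range was -0.054 to 0.030 for Zbtb16. In the PF4 change of old mice, the range was -0.016 to 0.036 for Nr3c1, -0.033 to 0.028 for Fkbp5, -0.062 to 0.038 for Sgk1, -0.052 to 0.039 for Tsc22d3, -0.16 to 0.029 for Sult1a1 and -0.039 to 0.048 for Cdkn1a. In the PF4 change of young mice, the range was -0.021 to 0.013 for Nr3c1, -0.030 to 0.015 for Nr3c2, -0.044 to 0.018 for Fkbp5, -0.031 to 0.014 for Hsd11b1, -0.065 to 0.040 for Sult1a1, -0.079 to 0.074 for Plin4, -0.056 to 0.027 for Zbtb16 and -0.071 to 0.12 for Cdkn1a. In the difference of the PF4 change between ages, the range was -0.013 to 0.041 for Nr3c1, -0.021 to 0.047 for Fkbp5, -0.15 to 0.041 for Sult1a1, -0.24 to 0.011 for Plin4 and -0.11 to 0.085 for Cdkn1a. In the fit on Fkbp5, the range was -0.14 to 0.078 for Hsd11b1, -0.13 to 0.043 for Tsc22d3, -0.00046 to 0.25 for Sult1a1 and -0.55 to 0.20 for Cdkn1a. Counts over all genes moved by more than 1.5 times in the age change of vehicle mice from 492 to 176 without libraries under 5000000 counts and 901 with the length index, in that of PF4 mice from 59 to 21 with those groups alone, 90 with the replicate block, 93 with DESeq2 and 98 with the length index, in the PF4 change of old mice from 6 to 0 without the shallow libraries or with those groups alone, 10 with the replicate block or the choroid plexus covariate and 23 with DESeq2, in the difference between ages from 0 to 1 with no count filter, in the averaged age change from 838 to 437 without the shallow libraries and 1398 with the length index, and in the fit on Fkbp5 from 3140 to 1725 with young libraries alone. With a library left out, the count over all genes ran from 36 to 91 in the age change of PF4 mice (36 without Young PF4 replicate 5 or 11, 39 without Old PF4 replicate 2, 91 without Young PF4 replicate 1). In the PF4 change of old mice it ran from 0, without any 1 of 9 libraries, to 20 without Old Veh replicate 11. Depth limits Plin4, Sult1a1 and Cdkn1a most, with 5, 8 and 14 reads in their lowest libraries.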
